A study of Mus musculus with 12 samples.

Results

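Immunoglobulin heavy chain segments and isotypes were followed in activated mouse B cells sorted by whether they secreted IL-10. The members are the gene probes of a mouse Agilent array whose file name begins with Igh (the helicase gene Ighmbp2 left out) or whose description names an immunoglobulin heavy chain. This gave 82 of the 55681 gene probes, printed in 100 of 59305 spots and filed under 67 gene names. Of them, 13 lie in constant regions, 65 among the variable segments, 1 between the mu constant region and the variable segments, and 3 have neither a position nor a family in the files. The variable probes comprise 20 named J558 or VH1, 1 each named Q52, VH5, VH6, VH7, VH10 and VH13, and 39 with no family named. A probe was tested when the scanner flagged it as well above background on 3 or more of the 12 arrays. 79 heavy chain probes passed, against 37649 of all probes. Of the 3 that did not pass, A_55_P2019683 and A_55_P2105454 were well above background on 0 arrays and A_55_P2025583 on 2. A member that passes through a few arrays of its brighter group had to differ, so the sort counts over the 79 are given beside those over the 48 that were well above background on all 12 arrays.

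The samples came from the spleens of female Balb/c mice, either controls or asthmatic mice allergic to house dust mite (HDM). All purified B cells, control cells included, were cultured with a CD40 agonist for 2 days and received LPS for the final 5 hours. An IL-10 secretion assay marked the secreting cells, and FACS separated IL-10+ from IL-10- cells, with 3 arrays for each sort and kind of mouse, or 4 groups. Whether a group's 3 samples are separate mice or cultures is not stated in the labels, so the p-values rest on a spread between samples, which may be technical. The cDNA was amplified by PCR before labelling, the cells were stimulated in culture and not taken directly from the mouse, and no labels say how many cells were sorted. In such bulk samples, fewer cells of a type and less RNA per cell cannot be told apart.

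A heavy chain is assembled when a B cell joins a variable, a diversity and a joining segment, each chosen from a cluster of many, and transcribes the product together with a constant region. The constant region sets the isotype: resting cells carry mu (IgM) and delta (IgD), and class switching recombines the same variable exon onto a downstream gamma (IgG), epsilon (IgE) or alpha (IgA) gene. Alpha-bearing and mu-bearing antibodies are secreted as polymers held by the J chain. In a mixed population, a probe to a mouse variable segment reports the cells that chose that segment or a close relative. A constant region probe reports transcripts that hold that constant region. Whether those of gamma, epsilon or alpha came from switched cells was not tested. BALB/c mice carry the gamma allele called Ighg2a, where C57BL/6 mice carry Ighg2c.

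The probes are 60 bases long. Their sequences and positions are those printed in the deposited scanner files, on mm9, a C57BL/6 assembly, with every sequence below on the minus strand of chromosome 12. 3 constant region probes are shown because the isotype results turn on them.
A_51_P485421 (mu, chr12:114659630-114659689): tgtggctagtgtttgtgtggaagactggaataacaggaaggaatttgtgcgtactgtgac
A_55_P2066173 (gamma1, chr12:114568594-114568653): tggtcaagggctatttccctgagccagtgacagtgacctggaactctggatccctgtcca
A_55_P2214124 (alpha, chr12:114498348-114498407): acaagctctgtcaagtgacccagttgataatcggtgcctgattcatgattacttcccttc

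Of the variable segment probes, 4 passed the test between IL-10+ and IL-10- cells, and 3 of these are shown here.
A_66_P127412 (chr12:115286517-115286576): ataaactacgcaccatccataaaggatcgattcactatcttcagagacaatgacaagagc
A_66_P114537 (Ighv10-3, chr12:115761848-115761907): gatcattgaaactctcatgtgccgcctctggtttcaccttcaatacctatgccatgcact
A_51_P104768 (chr12:115821969-115822028): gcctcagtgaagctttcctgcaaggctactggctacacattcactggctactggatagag

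The fourth, A_55_P2001262, is set beside a J558 probe. A second pair follows because it differs least among the shown probes. In each pair the capitals mark the longest run of identical bases, 31 bases in the first and 39 in the second.
A_55_P2001262 (chr12:115707350-115707409): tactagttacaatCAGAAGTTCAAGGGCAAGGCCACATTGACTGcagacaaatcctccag
A_55_P2065510 (J558, chr12:116134514-116134573): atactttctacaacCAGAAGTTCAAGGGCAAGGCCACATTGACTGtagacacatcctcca
A_55_P2075510 (chr12:116002746-116002805): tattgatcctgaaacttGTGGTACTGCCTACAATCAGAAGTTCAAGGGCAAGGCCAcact
A_55_P2142499 (chr12:115895649-115895708): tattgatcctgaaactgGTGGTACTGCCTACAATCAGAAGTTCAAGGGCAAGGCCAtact

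Members share sequence, so they are not independent readings. The first pair agrees at 53 of 59 aligned bases and the second at 58 of 60. Over all 3321 pairs of members, 31 pairs, involving 29 probes, had at least 48 identical bases or an identical run of at least 30. A transcript of 1 segment may therefore give signal at several probes. The descriptions name C57BL/6 for 18 probes, BALB/c for 1 and neither for 63, while the mice were Balb/c, so the match of a probe to the transcripts of these mice was not tested.

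Some file names go against the positions. The 3 alpha probes are filed under the variable family name Igh-VJ558. They lie beyond the epsilon probe on the side away from the variable segments, where the RefSeq gene order (GRCm38.p6, used for order only) places Igha. The delta probe A_51_P266248 is filed under Ighv14-2, but its description names the membrane form of the delta constant region, and it lies next to the mu probe. The gamma2b probe A_55_P2063283 is described only as a gamma polypeptide and was assigned by its place between gamma1 and gamma2a/2c. A_55_P2178834, filed under Ighm, and A_51_P117903, filed under Ighg, lie among the variable segments and were counted there.

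The share of gene spots well above background was 47.7% to 62.4% per array, and 0 spots were saturated. The number of arrays limits the precision. IL-10- HDM 3 stood apart: its mean correlation with the other arrays over all tested probes was 0.742, against 0.841 to 0.879 for the rest. It had 55 heavy chain probes well above background, against 68 to 79. All 6 IL-10+ arrays and IL-10- control 1 and 2 lay on slide 1, and IL-10- control 3 and all IL-10- HDM arrays on slide 2, so in HDM mice slide and sort cannot be told apart. The averaged sort, HDM against control in IL-10- cells and the interaction are partly tied to slide as well. Only the IL-10- control group spans both slides, so slide as a fixed block is estimated from those 3 arrays alone. The secretion assay and the series title name Il10 and Cd9, and both were higher in IL-10+ cells, by 7.59 and 4.52 on the log2 scale (adjusted p = 0.012 and 0.016). Levels below are log2 values of the processed signal less the 75th percentile of the array, so 0 is the level that 75% of gene spots do not exceed. They compare arrays for 1 probe and not 1 probe with another. Differences are limma estimates on that scale, and a probe is called where the p adjusted over all 37649 probes (Benjamini-Hochberg) is under 0.05.

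The heavy chain probes as a body lay higher in IL-10+ than in IL-10- cells. Averaged over control and HDM mice, the difference was positive for 75 of 79 probes, with a median of 1.72, against 54.4% of all tested probes and a median of 0.06. 4 probes (5.06%) were called, all higher, against 0.345% of all probes called in either direction and 0.324% called higher. At an unadjusted p under 0.05 there were 50 (63.3%), against 9.31% of all probes. All 50 were higher in IL-10+ cells, against 6.31% of all probes. For 23 probes (29.1%) every IL-10+ array lay above every IL-10- array, against 0.744% of all probes, and for 0 the reverse, against 0.194%. The 48 probes well above background on every array were refitted among the 19121 of all probes that pass this filter, with p adjusted over those. Of the 48, 47 were positive, with a median of 1.60. A_66_P127412 and A_66_P114537, called over all 37649 probes, are not among the 48. An unadjusted p under 0.05 was found for 39 (81.2%), against 10.8% of the 19121.

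The array medians show the same split. The median over the 79 probes was 1.41 to 1.86 on the 6 IL-10+ arrays. It was -0.28 to 0.38 on the IL-10- control arrays and 0.18, 0.12 and -1.62 on IL-10- HDM 1, 2 and 3. No IL-10- array reached the lowest IL-10+ array. For the 62 tested variable probes alone, the IL-10+ medians were 1.60 to 2.16 and the IL-10- medians -1.15 to 0.63. The 13 constant region probes did not split the arrays in this way: their medians ran from -5.22 to 1.26 in IL-10+ cells and from -4.02 to -1.12 in IL-10- cells, and the lowest of all was IL-10+ control 2.

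**Figure D1:**
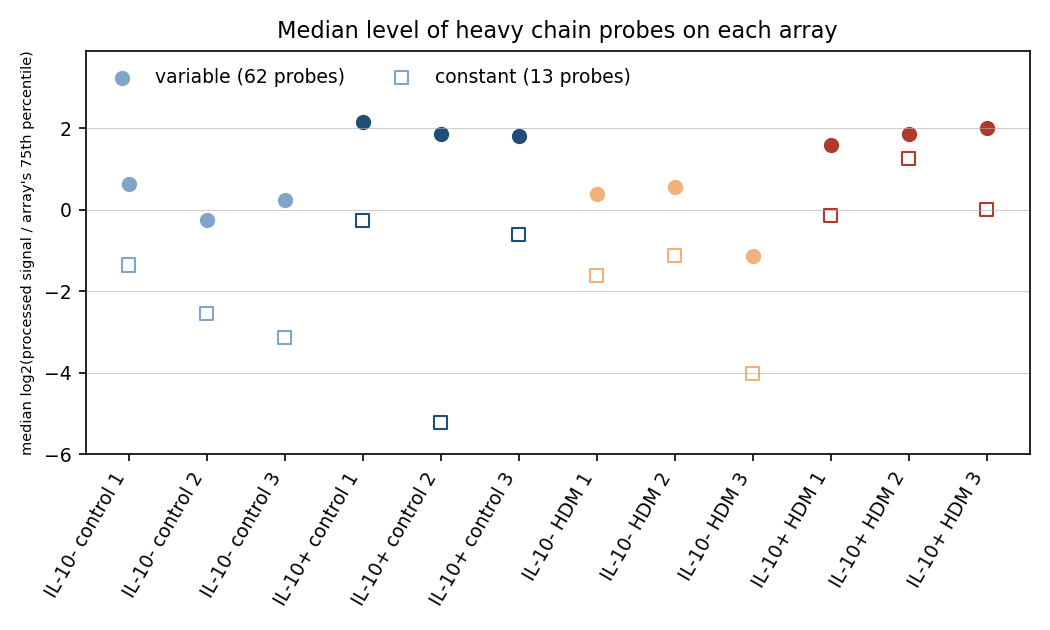
Median level (log2 processed signal less the 75th percentile of the array) of the 62 variable segment probes (filled circles) and the 13 constant region probes (open squares) on each of the 12 arrays. The variable medians of all 6 IL-10+ arrays, 1.60 to 2.16, lie above those of all 6 IL-10- arrays, -1.15 to 0.63, and the constant medians overlap.

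The constant regions were mixed by isotype, and 0 of the 13 probes were called between IL-10+ and IL-10- cells. By limma, 4 of the 13 had an unadjusted p under 0.05 (9.31% of all probes did), each of the 4 with the higher mean in IL-10+ cells. 10 had a positive averaged difference, with a median of 1.26, and for 0 did the 6 IL-10+ arrays all lie above the 6 IL-10- arrays. With median scaling 8 of 13 were positive, and with slide as a fixed block 9 of 13, with a median of 0.49. The 4 were mu, gamma1 A_55_P2066173 and 2 of the 3 alpha probes.

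Mu, the constant region of IgM, had the smallest SE of the constant region probes. Its probe A_51_P485421 read 5.30, 6.21 and 5.58 in IL-10+ control cells and 5.15, 4.59 and 4.73 in IL-10- control cells. In HDM mice it read 5.73, 5.84 and 5.65 in IL-10+ cells and 5.49, 5.65 and 5.19 in IL-10- cells. Every IL-10+ control array lay above every IL-10- control array, while in HDM mice 1 IL-10- array reached the lowest IL-10+ array. The averaged difference was 0.58 (SE 0.24, adjusted p = 0.51), from means of 5.72 and 5.13. The difference did not pass the test.

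Delta, the membrane isotype carried beside mu by resting B cells, gave 4.88, 4.03 and 4.46 in IL-10+ control and 5.46, 4.30 and 5.51 in IL-10- control cells. In HDM mice its probe A_51_P266248 gave 4.81, 4.49 and 4.71 in IL-10+ cells and 5.45, 5.10 and 3.60 in IL-10- cells. The groups overlapped in both kinds of mice, and the averaged difference was -0.34 (SE 0.38, adjusted p = 0.81). It is 1 of 4 heavy chain probes with a negative averaged difference.

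The gamma probes, which lie in the constant regions of IgG, numbered 7. None was called (0.345% of all probes were), and 6 had a positive averaged difference, with a median of 1.26, though 4 of 7 did so when arrays were scaled to their median or slide was a fixed block. The gamma1 probe A_55_P2066173 read 2.44, -1.39 and 0.51 in IL-10+ control and -1.36, 0.31 and -0.44 in IL-10- control cells, which overlap. In HDM mice it read 0.25, 0.78 and 0.58 in IL-10+ and -1.87, -1.72 and -3.56 in IL-10- cells, which do not. The averaged difference was 1.97 (SE 0.63, adjusted p = 0.34), a 3.92-fold difference. The other gamma1 probe, A_51_P461067, lies in the same gene 3′ of the first and had an averaged difference of 0.28 (SE 1.12, adjusted p = 0.96), ranging from -5.40 to 0.41 over the 12 arrays. Neither gamma1 probe was called, and whether their differences are unequal was not tested.

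Gamma3 A_55_P2118876 spanned 1.01, -6.26 and 1.47 in IL-10+ control cells, so 1 array lay at the dim end while its partners did not. Its IL-10- control arrays read 0.76, -2.62 and -5.17. In HDM mice it read 1.70, 2.22 and 0.83 in IL-10+ cells and -1.62, 0.42 and -6.17 in IL-10- cells, with no overlap. The averaged difference of 2.56 had an SE of 1.62 (adjusted p = 0.67). Gamma2b A_55_P2063283 ranged from -3.39 to 3.82, with an averaged difference of 1.89 (SE 1.21, adjusted p = 0.67). The gamma2a/2c probes gave 1.26 (A_55_P1956598, SE 0.62, adjusted p = 0.58), 0.19 (A_55_P2021084, SE 1.08, adjusted p = 0.97) and -0.73 (A_55_P2034655, SE 0.80, adjusted p = 0.81).

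Epsilon, the constant region of IgE, was at the edge of detection. Its probe A_55_P1985209 was well above background on 3 of 12 arrays, 2 IL-10+ and 1 IL-10-, and ranged from -5.93 to -2.60. The averaged difference was -0.10 (SE 0.61, adjusted p = 0.97), and its sign was positive with the normexp background or slide as a fixed block. For all 11 gamma, epsilon and alpha probes the lowest of the 6 IL-10+ values was on IL-10+ control 2, the array with the highest mu value, 6.21 at A_51_P485421. The variable probes were not low there, with a median of 1.85.

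Alpha, the constant region of IgA, had 3 probes. A_55_P2214124 read -0.54, -6.11 and -2.15 in IL-10+ control and -1.94, 2.62 and 0.01 in IL-10+ HDM cells. In IL-10- cells it read -5.85, -6.07 and -6.55 in control and -6.52, -4.35 and -5.68 in HDM mice. It was well above background on 5 of 6 IL-10+ arrays and on 0 of 6 IL-10- arrays. It thus passed the detection filter through IL-10+ cells alone, and its fold is given against a floor. That floor is the lowest signal of any probe well above background on each dim array, or the dim probe's own signal where higher. On this scale the IL-10+ mean was 7.82-fold above the floor on average and 27.2-fold above it in HDM mice. Such folds allow for no spread between arrays. The fitted averaged difference, which rests on IL-10- values not well above background, was 4.48 (SE 1.00, adjusted p = 0.12), and the only IL-10+ array among the IL-10- values was IL-10+ control 2. Without that array it was 5.28 (adjusted p = 0.034), the 1 of 12 omissions that gave a call. With the normexp background, which adds an offset of 50 before the log, it was 1.79.

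The other alpha probes spread more. A_51_P509679 was well above background on 4 of 6 IL-10+ and 1 of 6 IL-10- arrays. It read -1.42, -5.22 and -4.73 in IL-10+ control, -5.44, -6.23 and -4.36 in IL-10- control, -2.62, 1.26 and -0.99 in IL-10+ HDM and -6.44, -1.12 and -6.14 in IL-10- HDM cells, an averaged difference of 2.67 (SE 1.10, adjusted p = 0.50). A_55_P1960148, whose position is next to it, was well above background on 5 of 6 and 3 of 6. Its averaged difference was 2.13 (SE 1.44, adjusted p = 0.69), and it was -0.70 in control mice and 4.97 in HDM mice. With slide as a fixed block its averaged difference was -1.26. In HDM mice the 3 alpha differences were 3.78, 4.97 and 5.75 (adjusted p = 0.35, 0.35 and 0.17), and there the IL-10- arrays lie on the other slide.

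**Figure D2:**
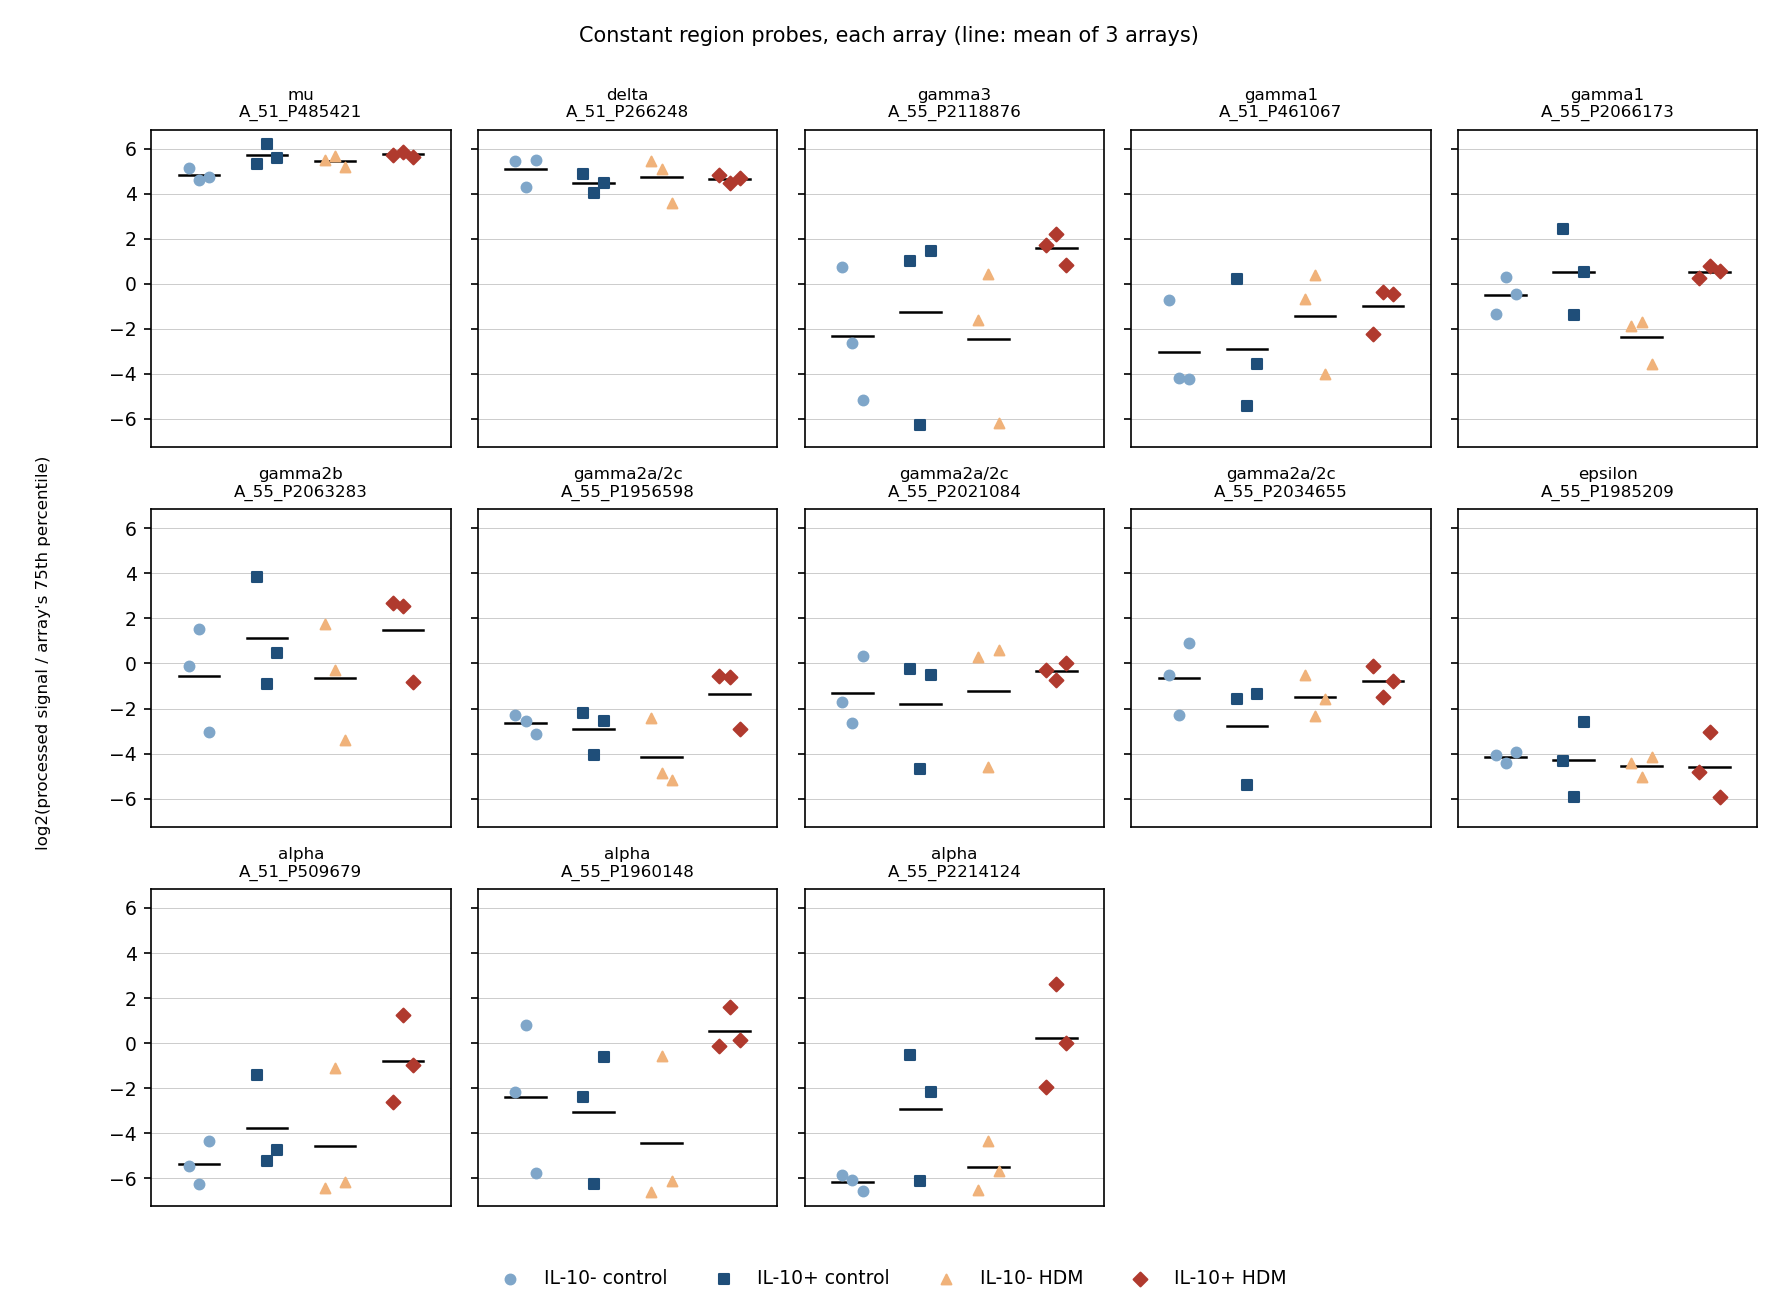
Level (log2 processed signal less the 75th percentile of the array) of the 13 constant region probes on each array, by group of 3 arrays, with a line at each group's mean. Mu lies between 4.59 and 6.21 and delta between 3.60 and 5.51 on the 12 arrays, while gamma3 A_55_P2118876 runs from -6.26 to 2.22 and alpha A_55_P2214124 from -6.55 to 2.62, with its highest mean in IL-10+ HDM cells.

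The variable segment probes, which report the antigen-binding part of the chain, lay almost all on one side. Of 62 tested probes, 61 had a positive averaged difference, with a median of 1.73 and a range of -0.28 to 5.92. All 46 with an unadjusted p under 0.05 were higher in IL-10+ cells, and for 23 the 6 IL-10+ arrays lay above the 6 IL-10- arrays. The exception with a negative difference was A_55_P2066894, the variable probe nearest the constant regions. Scaled to the array median, 59 were positive, with a median of 1.40, and with slide as a fixed block 59 were positive, with a median of 1.81.

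**Figure D3:**
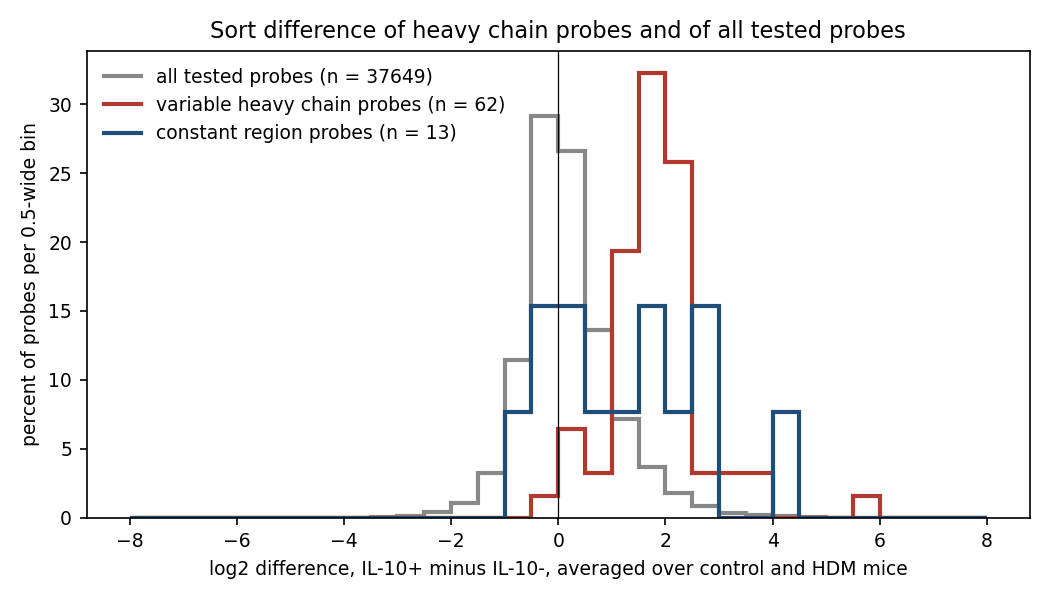
Distribution of the averaged log2 difference, IL-10+ minus IL-10-, as the percent of probes in each bin, for all 37649 tested probes, the 62 variable segment probes and the 13 constant region probes. All probes centre on 0.06, the variable probes on a median of 1.73 and the constant probes on 1.26.

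The positive differences ran through the named families and the whole cluster, though they were small for VH5 and VH13. All 20 J558 or VH1 probes, the largest mouse family, were positive, with a median of 1.58 and a range of 0.53 to 2.61. 19 of them had an unadjusted p under 0.05, and for 9 the sides did not overlap. The 6 probes of other named families, 1 per family, were all positive, with a median of 2.26 and a range of 0.14 to 3.93. VH13 gave 0.14 (SE 0.38) and VH5 gave 0.20 (SE 0.52). Of the 6, 3 had an unadjusted p under 0.05, and for 0 were the sides without overlap. With no family named, 35 of 36 were positive, with a median of 1.81. By position, 19 of 20 were positive in the stretch nearest the constant regions (median 2.11), 20 of 20 in the middle stretch (median 1.62) and 21 of 21 in the farthest stretch (median 1.66), with the probes split evenly by position. 3 of the 4 called probes lie in the middle stretch. The probe between mu and the variable segments, A_55_P1978994, had 2.60 (SE 1.47, adjusted p = 0.63), and the 3 without position had 0.05, 0.57 and 2.20.

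**Figure D4:**
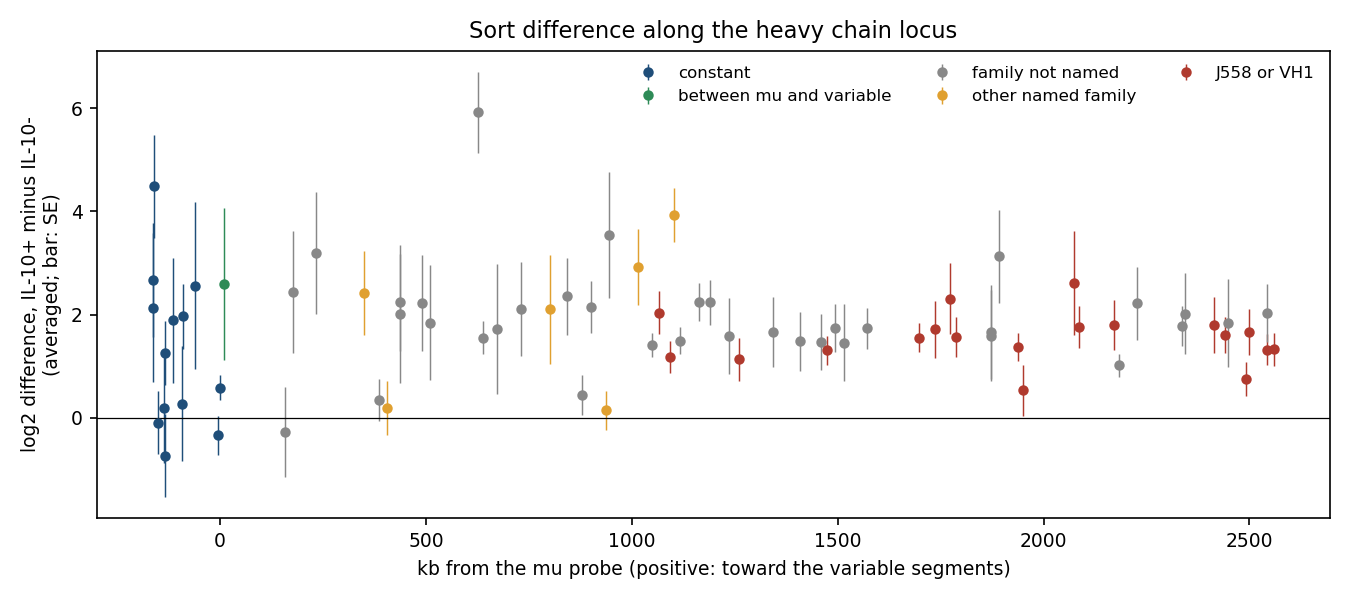
Averaged log2 difference, IL-10+ minus IL-10- (bar: SE), against the distance in kb from the mu probe, for the heavy chain probes with a position. Variable probes lie above 0 along the whole cluster, with 1 exception next to the constant regions. Colours mark constant regions, the probe between mu and variable, J558 or VH1, other named families and no family named.

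The largest averaged difference was that of A_66_P127412, whose description names no family. It read 0.96, 1.36 and -2.82 in IL-10+ control and 2.12, 1.51 and 2.47 in IL-10+ HDM cells. In IL-10- cells it read -3.25, -6.03 and -6.48 in control and -4.43, -4.61 and -5.12 in HDM mice. It was well above background on all 6 IL-10+ arrays and on 1 of 6 IL-10- arrays, and the sides did not overlap. The fitted averaged difference was 5.92 (SE 0.78, adjusted p = 0.017). It rests mostly on IL-10- values not well above background, and the probe passed the detection filter through IL-10+ cells. With the normexp background it was 3.06. In HDM mice, where 0 of 3 IL-10- arrays were well above background, the IL-10+ mean was 94.6-fold above the floor defined for alpha. The fitted limma difference there had an adjusted p of 0.052, short of a call.

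A_66_P114537, named Ighv10-3, rose by 3.93 (SE 0.53, adjusted p = 0.018). Its signal was well above background in 6 of 6 IL-10+ and 3 of 6 IL-10- samples. It read 0.98, -0.50 and -0.88 in IL-10+ control and -1.47, -2.52 and -0.78 in IL-10- control cells, which overlap slightly. In HDM mice it read 0.83, 0.58 and 2.32 in IL-10+ and -4.76, -6.31 and -4.40 in IL-10- cells, well apart. It was the 1 heavy chain probe of 79 called in HDM mice (1.27%, against 0.197% of all probes), at 6.40 (adjusted p = 0.015). That value rests on IL-10- HDM values of which 0 were well above background. On this scale, the IL-10+ HDM mean was 53.1-fold above the floor of the IL-10- HDM arrays. With the normexp background the difference in HDM mice was 3.20.

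The other called probes were well above background on all 12 arrays. A_51_P104768 read 0.60, 2.18 and 1.99 and 1.85, 1.99 and 2.80 in IL-10+ control and HDM cells, and 0.38, -0.22 and -0.06 and -0.32, -0.36 and -1.46 in IL-10- control and HDM cells. The sides did not overlap, and it rose by 2.24 (SE 0.37, adjusted p = 0.039), a 4.73-fold change. A_55_P2001262 read 5.11, 5.64 and 4.92 and 5.00, 4.81 and 5.06 in IL-10+ cells, against 3.84, 3.32 and 3.52 and 4.04, 3.89 and 3.52 in IL-10- cells. It rose by 1.41 (SE 0.24, adjusted p = 0.042), or 2.65-fold, again with no overlap.

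These calls differ in how they stand to single arrays. The calls of A_66_P127412 and A_66_P114537 held in all 12 fits that left out 1 array, that of A_51_P104768 in 3 (without IL-10+ control 1, IL-10- HDM 1 or IL-10- HDM 2; adjusted p 0.032 to 0.11 over the 12) and that of A_55_P2001262 in 1 (without IL-10- HDM 1; 0.045 to 0.12). The call of A_66_P114537 in HDM mice was lost without IL-10+ HDM 2 or IL-10+ HDM 3, both at an adjusted p of 0.059. With slide as a fixed block the 4 differences were 4.70, 4.74, 2.15 and 1.36 and none was called (adjusted p = 0.51, 0.25, 0.56 and 0.56), and with median scaling the adjusted p was 0.0501, 0.054, 0.19 and 0.41. With the normexp background the averaged difference of A_66_P114537 was 2.07.

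A_55_P2001269 (Ighv1-61), A_51_P288295 and A_55_P2001262 were named for a bright signal, which does not rank the segments by expression. A_51_P288295 read 5.34 to 5.95 on the IL-10+ arrays and 3.43 to 4.55 on the IL-10- arrays, a difference of 1.50 (SE 0.27, adjusted p = 0.055). A_55_P2001269 read 5.05 to 6.07 and 3.78 to 4.55, a difference of 1.37 (SE 0.27, adjusted p = 0.081). For both, every IL-10+ array lay above every IL-10- array. A_55_P2164784 and A_55_P2150734 had larger differences with no overlap, 3.19 (SE 1.19, adjusted p = 0.45) and 2.44 (SE 1.18, adjusted p = 0.57). On IL-10- HDM 3 they read -6.09 and -5.19, and without that array the differences were 1.91 and 1.14.

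Probes of similar sequence were set beside each other. Over the 31 similar pairs, the gap between the averaged differences of the 2 probes had a median of 0.25 and ran from 0.0047 to 1.29. A_55_P2065510, the J558 probe that shares the 31-base run with the called A_55_P2001262, differed by 1.31 (SE 0.28, adjusted p = 0.11). A_55_P2075510 and A_55_P2142499, which agree at 58 of 60 bases, differed by 1.66 (SE 0.69) and 1.58 (SE 0.73). Neither was called (adjusted p = 0.50 and 0.55).

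**Figure D5:**
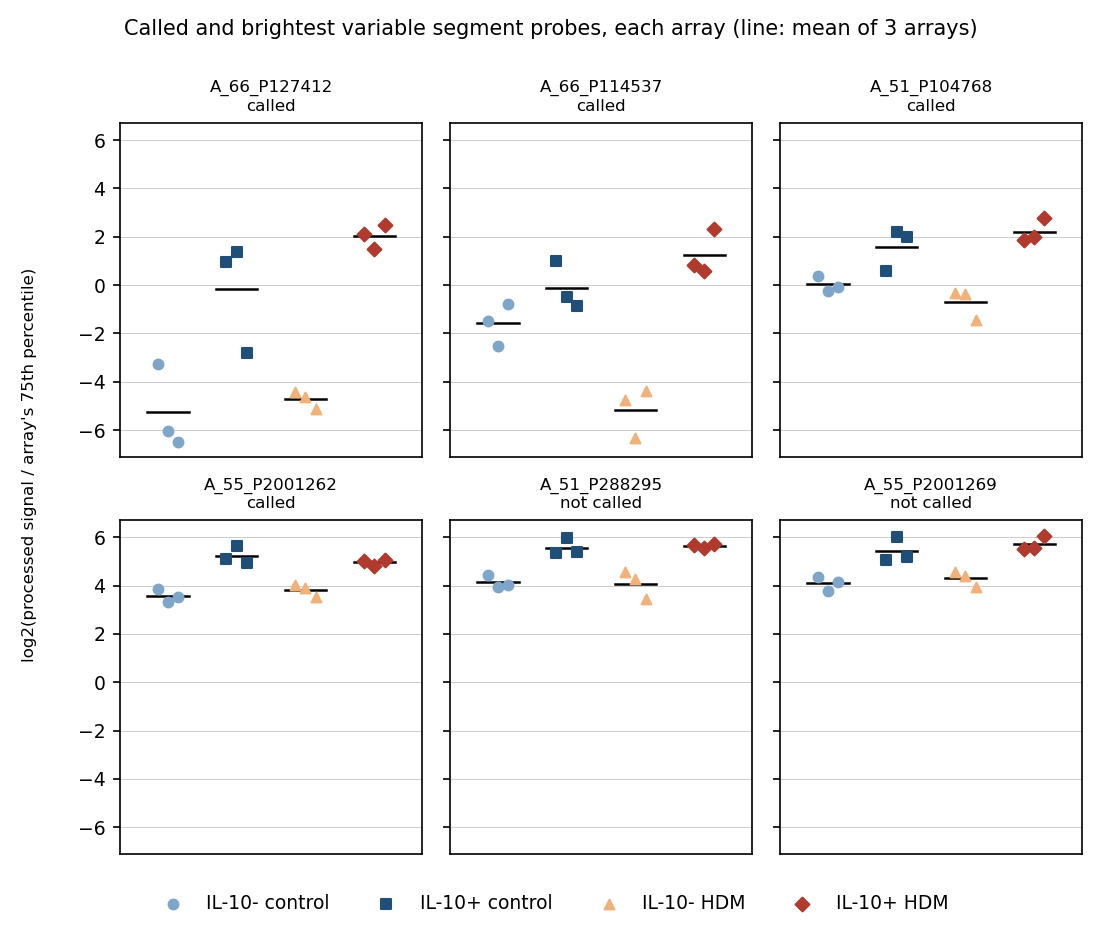
Level (log2 processed signal less the 75th percentile of the array) of the 4 called variable segment probes and the brightest others on each array, by group of 3 arrays, with a line at each group's mean. The IL-10+ arrays lie above the IL-10- arrays in each panel except A_66_P114537, where 1 IL-10- control array at -0.78 passes 1 IL-10+ control array at -0.88.

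The sort difference was then read within each kind of mouse. In control mice 67 of 79 probes were positive, against 47.3% of all probes, with a median of 1.41 against -0.04. 0 were called (0.0159% of all probes), and 30 (38.0%) had an unadjusted p under 0.05, against 4.14%, and all 30 were higher, against 2.39%. The groups did not overlap for 40 probes higher in IL-10+ cells (50.6%, against 4.83%) and for 1 lower (1.27%, against 4.67%). In the refit of the 48 always well above background, 43 were positive. An unadjusted p under 0.05 was found for 28 (58.3%), against 3.91% of the 19121 probes in that refit. On slide 1 alone, which holds 5 of the 6 control arrays, 67 were positive, with a median of 1.27. An unadjusted p under 0.05 was found there for 31 (39.2%), against 6.92% of all probes. In HDM mice 76 were positive, against 59.2% of all probes, with a median of 1.87 against 0.23. 44 (55.7%) had an unadjusted p under 0.05, against 13.2%, and all 44 were higher, against 8.44%. That excess depended on the setting: it was 16 (20.3%, against 17.8% of all probes) under median scaling and 7 (8.86%, against 7.86%) with slide as a fixed block. The groups did not overlap for 43 higher (54.4%, against 12.1%). In the refit of the 48 always well above background, 46 were positive. An unadjusted p under 0.05 was found for 31 (64.6%), against 16.8% of the 19121 probes.

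Allergy gave no heavy chain call within either sort. In IL-10+ cells, 47 of 79 probes were positive for HDM against control, against 56.3% of all probes, with a median of 0.10 against 0.08. 0 were called (0.00531% of all probes), and 4 (5.06%) had an unadjusted p under 0.05, against 2.18%, all higher, against 1.51%. The groups did not overlap for 7 probes higher in HDM mice (8.86%, against 5.82%) and 4 lower (5.06%, against 3.9%). Under median scaling 34 were positive, with a median of -0.19.

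Of the 13 constant region probes, 12 had a higher mean in IL-10+ HDM than in IL-10+ control cells, with a median of 1.58, and 9 did under median scaling. Without IL-10+ control 2, on which most gamma and alpha probes were dim, the median was 0.34. For alpha A_55_P1960148 the difference was 3.60 (SE 2.04), and 2.02 without that array. It was 3.16 (SE 1.42) and 1.57 for A_55_P2214124, and 3.00 (SE 1.56) and 2.29 for A_51_P509679. The adjusted p was 1 for each.

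Of the probes that lie among the variable segments and whose groups did not overlap, the largest positive differences in IL-10+ cells were A_66_P127412 at 2.20 (SE 1.10), A_55_P2140348 at 1.73 and A_51_P513776 at 0.87. A_51_P513776 read 3.54, 3.55 and 4.28 in HDM and 2.38, 3.05 and 3.33 in control mice. The largest negative ones were A_66_P110103 (Ighv7-4) at -2.74, A_55_P2090012 at -2.40 and A_66_P102143 at -2.35. A_55_P2090012 read 0.21, 0.45 and -0.56 in HDM and 1.02, 3.56 and 2.70 in control mice. All 6 had an adjusted p of 1.

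In IL-10- cells, 26 of 79 probes were positive for HDM against control, against 45.6% of all probes, with a median of -0.42 against -0.10. 0 were called (0.0717% of all probes), and 3 (3.8%) had an unadjusted p under 0.05, against 9.4%, all lower, against 6.09%. The groups did not overlap for 3 probes higher (3.8%, against 5.33%) and 5 lower (6.33%, against 6.83%), so these shares lie near or under those of all probes. Without IL-10- HDM 3 the median was 0.01 and 40 were positive. Under median scaling 46 were positive, with a median of 0.23. All IL-10- HDM arrays lie on slide 2, which of the control arrays holds only IL-10- control 3, so allergy and slide are partly tied here.

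Mu was among the 3 higher, at 0.62 (SE 0.35, adjusted p = 0.59). Gamma1 A_55_P2066173 was among the 5 lower, at -1.89 (SE 0.89, adjusted p = 0.54). The alpha probes A_51_P509679, A_55_P1960148 and A_55_P2214124 gave 0.77, -2.06 and 0.64. Of the variable probes, Ighv10-3 A_66_P114537 gave -3.57 (SE 0.74, adjusted p = 0.16). Its mean in IL-10- control cells was 7.46-fold above the floor of the IL-10- HDM arrays. A_66_P103124 gave -1.59 (adjusted p = 0.45) and A_55_P2001281 -0.88 (adjusted p = 0.72). A_55_P2134277 gave 1.12 (adjusted p = 0.58) and A_55_P2130497 0.35 (adjusted p = 0.72).

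The difference of the sort contrast between HDM and control mice was tested directly. 0 of the 79 probes were called, as were 0 of all probes, and 4 (5.06%) had an unadjusted p under 0.05, against 6.49%. It was positive for 56 of 79, against 57.9% of all probes, with a median of 0.62. Without IL-10- HDM 3 the median was 0.03, and under median scaling 36 were positive. The smallest p was that of A_66_P114537, whose sort contrast was 4.95 larger in HDM mice (SE 1.05, adjusted p = 0.39). The HDM comparisons and the sort comparisons share arrays, so their values are set side by side and not correlated.

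The genes that act with heavy chains were read from lists. Secreted polymers need the J chain, and Jchain rose by 6.84 (SE 0.63, adjusted p = 0.0061). It was the 1 called among 6 tested secretion partners, where 0.345% of all probes were called. Of the 6 partners, 5 were positive, with a median of 0.90. Mzb1, which helps IgM assembly, gave 2.08 (SE 0.95, adjusted p = 0.55), and Ell2, an elongation factor for the secreted form of the transcript, gave 1.26 (adjusted p = 0.38). Of 11 folding factors of the endoplasmic reticulum, 1 was called: Dnajb9, a co-chaperone, fell by 1.66 (SE 0.26, adjusted p = 0.033), and the list's median was -0.10.

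Of 8 antigen receptor partners, the adaptor Blnk fell by 1.56 (SE 0.26, adjusted p = 0.039), with a list median of 0.28. Of 10 tested class switching genes, 0 were called (0.345% of all probes were), 3 were positive and the median was -0.33. Of 14 transcription factors of heavy chain genes, 0 were called, with a median of -0.01. The largest were the repressor Bach2 at 2.90 (adjusted p = 0.38), Pou2f1 at 1.39 and the coactivator Pou2af1 at 1.30. Of 7 genes of the surrogate light chain and recombination, 4 were tested and 0 called, and Igll1, Rag1 and Rag2 were below the detection filter. For all probes in these lists, the HDM comparisons gave 0 calls.

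Plasma cells carry large amounts of heavy chain RNA, so their markers are given beside the variable segment result. Of 10 plasma cell symbols 7 were tested, 4 were positive and 2 were called, Jchain and Ly6c1 (4.67, adjusted p = 0.039), against 0.345% of all probes. The list's median was 0.29. The defining factors Prdm1, Xbp1 and Irf4 gave 0.29, -0.29 and -0.34, and the surface marker Sdc1 gave -1.08. Mzb1, also on this list, is given above with the secretion partners. Tnfrsf17 and Ly6k were below the detection filter. The summed level of the list was 6.36 to 7.63 and 6.48 to 6.74 in IL-10+ control and HDM cells, and 6.26 to 6.77 and 7.03 to 8.26 in IL-10- control and HDM cells. The sum adds linear signals over probes, so it follows the brightest probes of the list and not each marker. The part of such cells in the result was not tested.

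The B cell identity list, had all 10 members above the detection filter, 0 calls and a median of 0.14. Markers of T cells (6 of 8 tested, median 0.06), NK cells (2 of 5, median -0.18), monocytes and macrophages (5 of 5, median 0.03), neutrophils (2 of 5, median -0.27) and erythroid cells (2 of 4, median 0.86, 1 with an unadjusted p under 0.05) had 0 calls by limma.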

How the data were processed

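The 12 arrays were 1-colour Agilent arrays on mm9 annotation, read with Agilent Feature Extraction 10.7.3.1, per the file headers. Per the labels' protocols, bead-isolated mRNA was amplified as cDNA by PCR (SuperAmp) and labelled with Cy3. The deposited scanner files give intensity: a processed signal that is background-subtracted and detrended but not normalised between arrays, with mean spot and background signals. Spot flags are other values, per the file headers. A deposited table for the series holds each spot's ratio to the array's median processed signal. It was recomputed to within 0.00077%.

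Spots of a probe were averaged. Processed signals, on the log2 scale and scaled by subtracting the 75th percentile of each array, were fitted with limma 3.58.1 in R 4.3.3 (lmFit, eBayes), with 4 group means over all 12 arrays, 8 residual and 2.15 prior degrees of freedom. Control spots and 84 probes with outlier flags were left out. The fit was tested on simulated data. Adjusted p-values run over all 37649 tested probes. The 6 comparisons were the sort averaged over mice and separately in control and HDM mice, HDM against control in each sort, and their interaction.

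Named are all constant region probes, called probes, the 3 variable probes with the highest mean signal and, in each averaged-sort or HDM comparison, the 3 largest variable differences each way without overlap. Probes shown for their sequence, A_55_P1978994, A_55_P2066894 and A_55_P2001267 are extra. Of each list, called genes and otherwise up to 3 were named, and the defining plasma cell genes were added after their values were seen. Members and lists were chosen with earlier results of these data known. Alternatives were median scaling, quantile normalisation, normexp background, other filters, 1 probe per gene name, slide as a fixed or random block, slide 1 alone, the replicate number as a block, and leaving out each array.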

Additional observations from a re-analysis of the deposited data

Results flagged for a closer look

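A_55_P2001267, a heavy chain probe with no position or family in the files, which was kept apart from the variable segment probes, differed in opposite directions in the 2 kinds of mice. On the log2 scale, IL-10+ minus IL-10- was -2.13 in control mice and 2.23 in HDM mice, with no overlap between the arrays of the 2 sorts in either. The test of the difference between the contrasts gave 4.36 (SE 1.58, limma adjusted p = 0.73), so it did not pass. The control difference rests largely on IL-10+ control 2, at -4.90 against -0.39 and -0.37 on its partners.

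A_55_P2025583, a heavy chain probe below the detection filter and in no comparison, was well above background on 2 of 6 HDM arrays and 0 of 6 control arrays. It read -2.51 on IL-10+ HDM 2 and -1.02 on IL-10- HDM 1.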

How the results depend on the processing

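Of 948 alternative values of 47 named differences, 880 kept direction and side of the threshold, 34 lost the call, 7 gained one and 27 changed sign. The 4 averaged sort calls became 0 under median scaling, 8 with normexp, 0 with slide as a fixed block, 8 as a random block and 2 with the replicate block (2 to 8 leaving out an array). The 1 call in HDM mice became 0 under median scaling, 0 with the filter on all 12 arrays, 0 with slide fixed and 3 with slide random (0 to 6 leaving out an array). The shares of all probes called in these settings are not set beside these call counts. A gain or loss of calls is therefore not read as a result about the heavy chain probes. With the filter on all 12 arrays, which keeps 48 members, 43 were positive in control mice, 46 in HDM mice, 47 averaged, 30 for HDM in IL-10+ cells and 29 for the interaction. Under median scaling, which moves the median of all probes from 0.06 to -0.27 averaged, from 0.23 to -0.57 in HDM mice, from -0.10 to 0.55 for HDM in IL-10- cells and from 0.23 to -0.71 for the interaction, 46 were positive for HDM in IL-10- cells (21 to 40 leaving out an array) and 36 for the interaction. Counts at an unadjusted p under 0.05 follow with the share of members, against that of all probes. In HDM mice they were 16 under median scaling (20.3%, against 17.8%) and 7 with slide fixed (8.86%, against 7.86%). Averaged with slide fixed there were 24 (30.4%, against 7.1%). For HDM in IL-10+ cells they were 12 with normexp (15.2%, against 1.96%) and 1 of 64 with 1 probe per gene name (1.56%, against 2.28%). They were 2 with slide fixed (2.53%, against 2.26%) and 7 on slide 1 alone (8.86%, against 3.83%). For HDM in IL-10- cells there were 7 under median scaling (8.86%, against 11.2%). Leaving out an array gave 13 (16.5%, against 4.37%) to 41 (51.9%, against 5.81%) in control mice. It gave 1 (1.27%, against 1.73%) to 8 (10.1%, against 3.54%) for HDM in IL-10+ cells. For HDM in IL-10- cells it gave 3 (3.8%, against 7.05% to 8.49%) to 8 (10.1%, against 13.9%). The interaction had 3 (3.8%, against 4.45% to 5.73%) to 11 (13.9%, against 9.96%). The cause was not tested.

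Sign changes touched uncalled differences. With slide fixed, the averaged sort gave 0.079 for A_51_P266248, -0.89 for A_51_P461067, -1.26 for A_55_P1960148, 0.10 for A_55_P1985209, 0.81 for A_55_P2034655, -0.60 for A_55_P2063283 and -0.26 for A_55_P2118876. A_55_P1960148 was -0.12 in HDM mice and 1.33 for HDM in IL-10- cells, and A_51_P509679 was -0.21 in the latter. Median scaling gave -0.053 for A_51_P461067 and -0.14 for A_55_P2021084, normexp 0.10 for A_55_P1985209, and quantile normalisation -0.016 for A_55_P2130497 in IL-10- cells. Leaving out an array, the averaged sort ran from -0.51 to 0.90 for A_51_P461067, from -0.52 to 0.31 for A_55_P1985209 and from -0.65 to 0.91 for A_55_P2021084. A_55_P1960148 in control mice ran from -2.39 to 0.88, and A_51_P509679 for HDM in IL-10- cells from -0.95 to 1.71. Same-numbered arrays deviated from their group means with correlations of -0.12 to 0.12. With 3 arrays per group these cannot decide whether the replicate numbers pair the samples, so the block is only an alternative. 48 of the 79 tested members were well above background on every array, and the values of the others on dim arrays limit their folds.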
